A study of Mus musculus with 7 samples.

Results

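Myelin structural genes encode the proteins that build the myelin sheath of the central nervous system. The set was chosen by gene name and held Mbp, Mog, Mag, Mobp, Cnp, Cldn11, Opalin, Ermn and Mal, 9 of the 53801 genes in the deposited tables, each found on a single row. Gene expression was measured by RNA sequencing of mouse tissue (strain C57BL/6J) labelled cortical plate, with 4 libraries from embryonic day 14.5 (E14.5) and 3 from mice aged 10.5 months. The E14.5 libraries carried Nbs1 fl/+ and a Nestin-Cre transgene (replicates 1 and 4 male, 2 and 3 female). The labelled dates place the E14.5 tissue at fewer days after the plug than the labelled stage. The adult libraries were all female and carried CamK II-Cre, with Atr fl/+ in replicates 1 and 3 and Atr +/+ in replicate 2. Nestin-Cre acts in neural progenitors and their progeny, and CamK II-Cre mainly in excitatory forebrain neurons. No group was free of Cre, and age, library kit, Cre driver and floxed allele cannot be told apart in any comparison of the ages. Depth ran from 32533065 to 43197226 counts per library for the embryos and from 27327927 to 29996018 for the adult mice. The labels name no animal for a library, so p-values measure only the spread between these libraries.

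Myelin is made by oligodendrocytes, which wrap axons with many turns of membrane. In compact myelin the cytoplasm is squeezed out and basic proteins hold the inner faces of the membrane together, while non-compact parts, such as the inner tongue and the paranodal loops, keep cytoplasm and join the sheath to the axon. In the mouse cortex, oligodendrocytes mature and myelinate after birth. In pieces of tissue, fewer cells of a type and less RNA per cell cannot be told apart.

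All 9 myelin structural genes were higher in adults, and in each of the 9 every adult library lay above every E14.5 library. Among all 20800 genes tested, 86.4% were called in either direction, 41.7% were called higher in adults and 41.3% had every adult library above every E14.5 library. A change beyond 2-fold was called for all 9 members and, in the same direction, for 24.6% of all genes tested. The median log2 fold change was 7.40 over the members and -0.08 over all genes tested, and the members ranged from 2.46 for Cldn11 to 14.72 for Mobp. Of the 9, Mag, Mobp and Opalin (3 members) passed the filter on low counts only through their adult libraries, so they had to differ, and the counts and median above are a description. Levels are given as CPM (counts relative to library size) after trimmed-mean scaling, each p-value is from edgeR's quasi-likelihood test with Benjamini-Hochberg adjustment over all genes tested, and ± is the SD over 4 E14.5 or 3 adult libraries.

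**Figure D1:**
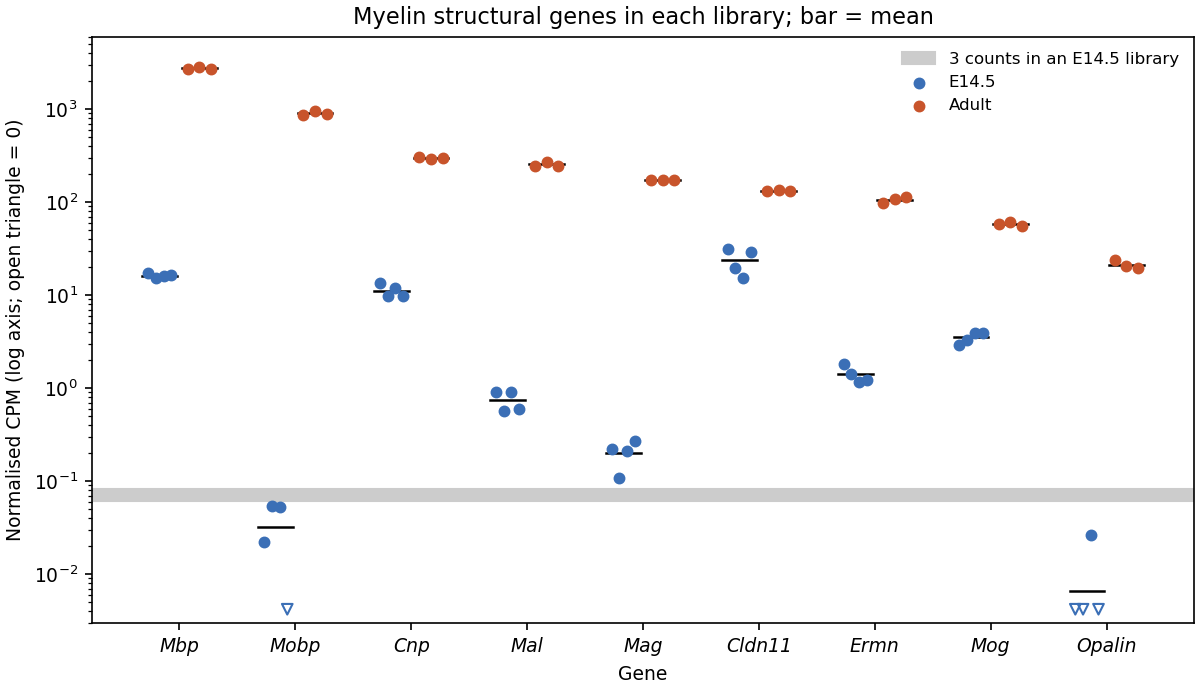
Normalised CPM (log axis) of the 9 myelin structural genes in the 4 E14.5 (blue) and 3 adult (orange) libraries, with bars at the group means, open triangles for libraries at 0 and a grey band for 3 counts in an E14.5 library. Every adult library lies above every E14.5 library for each gene, while the E14.5 levels run from 0 for Opalin to 31.7 for Cldn11.

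The promoter sequences of Mobp, Opalin and Cldn11 are shown because these genes had the 2 largest changes and the smallest change of the set. The windows hold 250 bases before and 50 after an annotated RefSeq start on GRCm38.p6, at chr9:120149492-120149791 on the plus strand, chr19:41077064-41077363 on the minus strand and chr3:31149670-31149969 on the plus strand. Each is written 5′ to 3′ on the strand of the gene. Capitals mark the hexamer ACAAAG, a core to which SOX factors bind, or its reverse complement CTTTGT. SOX10 is the SOX factor known to drive myelin genes.
Mobp: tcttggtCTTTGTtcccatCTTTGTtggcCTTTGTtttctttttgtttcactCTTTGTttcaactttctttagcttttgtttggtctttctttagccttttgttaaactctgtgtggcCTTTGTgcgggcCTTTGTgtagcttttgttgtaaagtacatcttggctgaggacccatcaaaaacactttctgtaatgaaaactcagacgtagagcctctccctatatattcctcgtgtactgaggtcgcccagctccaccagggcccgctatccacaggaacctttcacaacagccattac
Opalin: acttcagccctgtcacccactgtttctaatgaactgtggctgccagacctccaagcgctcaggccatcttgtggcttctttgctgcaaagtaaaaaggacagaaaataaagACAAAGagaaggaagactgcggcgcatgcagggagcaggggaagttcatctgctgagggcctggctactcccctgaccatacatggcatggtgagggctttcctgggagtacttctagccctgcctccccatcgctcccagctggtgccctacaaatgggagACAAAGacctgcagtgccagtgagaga
Cldn11: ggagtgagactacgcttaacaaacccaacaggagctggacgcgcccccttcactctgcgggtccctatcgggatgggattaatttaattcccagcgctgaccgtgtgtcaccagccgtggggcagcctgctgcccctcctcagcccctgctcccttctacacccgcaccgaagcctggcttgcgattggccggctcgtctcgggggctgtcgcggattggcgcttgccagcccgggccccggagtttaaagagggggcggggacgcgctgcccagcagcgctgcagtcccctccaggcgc

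The Mobp window held 6 matches to the hexamer, all on the strand opposite to the gene, and the Opalin window held 2, both on the gene's strand. No match was present in the Cldn11 window. Windows were listed for 8 of the 9 members, with 3 for Mag, and 4 members had a match in at least 1 window (Mobp, Opalin, Mag and Cnp). Among all 32851 windows of the same length, 18.7% held at least 1 match, 2.37% at least 2, and 1 window, that of Mobp itself, held 6 or more. These shares are per window, and no share per gene was computed to set beside the count of members. The 2 Mag windows with a match overlap and hold the same site. The matches do not overlap each other, and the hexamer was picked with the Mobp sequence in view. A match is a run of letters and was not tested for binding, and the windows of Mog, Ermn and Mal, which lack these letters, belong to genes that were also higher in adults.

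**Figure D2:**
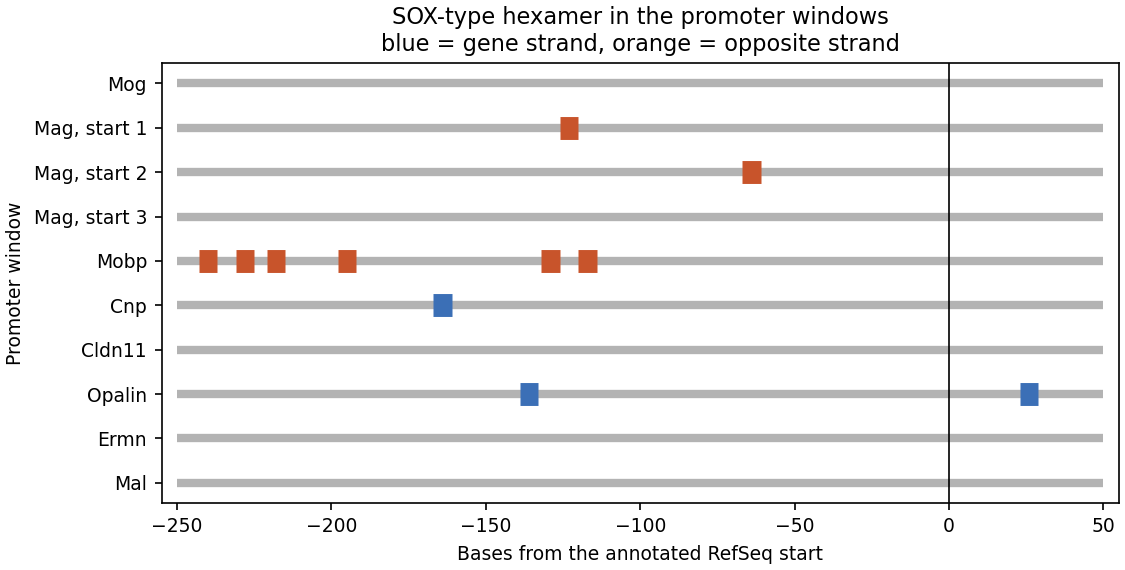
Position of the hexamer in the promoter windows of 8 members, as bases from the annotated RefSeq start, with matches on the gene strand in blue and on the opposite strand in orange. The 6 Mobp matches lie between 243 and 120 bases before the start, and the windows of Mog, Cldn11, Ermn and Mal hold none.

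Among the proteins of compact myelin, Mbp, which binds the inner faces of the membrane together, was the most abundant member in adults. Mbp (ENSMUSG00000041607, GRCm38 chromosome 18, 82475146 to 82585637, plus strand) had 17.3, 15.2, 16.0 and 16.4 CPM in E14.5 replicates 1 to 4. In adult replicates 1 to 3 it had 2719, 2811 and 2688 CPM. The groups were far apart, with both sets of replicates tight, and Mbp rose, with a log2 fold change of 7.40 (SE 0.068, adjusted p = 2.2e-13). The E14.5 signal was well above the counting floor, with 2740 counts over the 4 libraries. GENCODE M21 lists 12 transcript starts for Mbp, spread over 88116 bases. The upstream starts make the golli transcripts, known from neurons and embryonic brain, which share exons with the myelin transcripts, and the gene-level count does not separate them.

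Mobp, a small basic protein of compact myelin in the central nervous system, went from near nothing to the second highest level of the set. Mobp (ENSMUSG00000032517, chromosome 9, 120149707 to 120181484, plus strand) had 1, 2, 2 and 0 counts in E14.5 replicates 1 to 4, 5 counts in all, and 867.6, 955.3 and 881.7 CPM in adults. All 4 E14.5 libraries were under the level that 3 counts would give (0.0619 to 0.0818 CPM). The ratio of pooled levels was 30300, with an exact 95% interval from 13000 to 93300 that covers counting error only. The fitted log2 fold change of 14.72 (SE 0.156, adjusted p = 3.5e-13) depends on the prior count. Its SE does not carry the width of that counting interval. Mobp passed the filter on low counts only through its adult libraries, so the p-value is a description. Gm38642, a processed transcript on the same strand, shares 79 exon bases with Mobp and had 0.836 to 1.17 CPM in adults.

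Mal, a small membrane-spanning proteolipid of compact myelin, rose, with a log2 fold change of 8.40 (SE 0.107, adjusted p = 7.0e-13). Mal (ENSMUSG00000027375, chromosome 2, 127633226 to 127656695, minus strand) had 0.911, 0.573, 0.918 and 0.598 CPM at E14.5 and 245.9, 269.3 and 246.9 CPM in adults. Replicates 1 and 3 were the higher pair at E14.5, and adult replicate 2 was the highest of the adults.

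Cnp and Ermn act on the cytoplasmic and cytoskeletal side of the sheath. Cnp, a cyclic nucleotide phosphodiesterase that keeps cytoplasmic channels open in non-compact myelin, had 13.4, 9.76, 11.8 and 9.86 CPM at E14.5 and 303.9, 293.6 and 296.1 CPM in adults (ENSMUSG00000006782, chromosome 11, 100574904 to 100591729, plus strand). Its libraries did not overlap between ages, but at E14.5 it was already present at several CPM in each library. Cnp rose, with a log2 fold change of 4.73 (SE 0.0983, adjusted p = 7.7e-12). Ermn, an actin-binding protein of late oligodendrocytes, had 1.82, 1.42, 1.15 and 1.24 CPM at E14.5 and 97.9, 108.0 and 113.9 CPM in adults (ENSMUSG00000026830, chromosome 2, 58045113 to 58052864, minus strand). Its log2 fold change was 6.23 (SE 0.112, adjusted p = 3.1e-12), with E14.5 replicate 1 the highest embryonic library and adult replicate 1 the lowest adult one. The E14.5 kit does not mark strand, and exons of opposite-strand genes cover 4.23% of Cnp exon bases (Dnajc7) and 6.52% of those of Ermn (Galnt5). Dnajc7 had 183.1 to 188.3 CPM at E14.5, above Cnp itself, and Galnt5 had at most 0.178 CPM. The part of Dnajc7 reads in the E14.5 level of Cnp was not tested, and the other 7 members have no exon base under an opposite-strand exon.

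Mag and Mog are immunoglobulin-domain proteins of the myelin surface. Mag, a sialic acid-binding adhesion protein of the membrane facing the axon, had 10, 4, 8 and 13 counts in E14.5 replicates 1 to 4 (0.222, 0.109, 0.210 and 0.268 CPM) and 171.0, 173.6 and 174.3 CPM in adults. It had the tightest adult libraries of the set, with a coefficient of variation of 1%. Mag (ENSMUSG00000036634, chromosome 7, 30899176 to 30914873, minus strand) rose, with a log2 fold change of 9.68 (SE 0.0982, adjusted p = 2.5e-13). Mag passed the filter on low counts only through its adult libraries, so its p-value is a description. Mog, on the outermost face of the sheath, had 2.91, 3.30, 3.96 and 3.90 CPM at E14.5 and 58.1, 60.9 and 56.0 CPM in adults (ENSMUSG00000076439, chromosome 17, 37010743 to 37023398, minus strand). In adults Mog was below Mag, but at E14.5 it was above Mag in every library, with 592 counts against 35 over the 4 libraries. Mog rose, with a log2 fold change of 4.05 (SE 0.0955, adjusted p = 1.8e-11).

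Cldn11 had the smallest rise and the highest embryonic level. It encodes the claudin that forms the tight-junction strands between turns of central myelin, and it is also known from the arachnoid barrier of the meninges. Cldn11 (ENSMUSG00000037625, chromosome 3, 31149920 to 31164324, plus strand) had 31.7, 19.7, 15.4 and 29.4 CPM in E14.5 replicates 1 to 4 and 132.5, 135.7 and 131.5 CPM in adults. It rose, with a log2 fold change of 2.46 (SE 0.195, adjusted p = 3.7e-07; beyond 2-fold, adjusted p = 8.4e-06). The E14.5 libraries spread widely, the highest being 2.06 times the lowest. For Mbp, the tightest member at E14.5, the ratio was 1.14. The coefficient of variation at E14.5 was 32.3% for Cldn11. It was lower for Mbp (5.41%), Mog (14.3%), Cnp (15.5%), Ermn (21.1%) and Mal (25.4%). It was higher for Mag (33.1%), Mobp (80.8%) and Opalin (200%), which had few E14.5 counts. The higher pair, replicates 1 and 4, were the male libraries. Sex was not tested at E14.5, and with the female libraries alone the log2 fold change of Cldn11 was 2.92.

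Meningeal marker genes also differed between the E14.5 libraries. All 8 genes of a meningeal list were highest in E14.5 replicate 1, as was Cldn11, and 5 of the 8 were lowest in replicate 3, as was Cldn11. Replicate 1 was also the highest E14.5 library for Mbp, Cnp and Ermn (4 of 9 members with Cldn11) and for 28.1% of all genes tested. Ermn too was lowest in replicate 3, as were 22.8% of all genes tested. The summed microglia, astrocyte, endothelial and erythroid genes were highest in replicate 1 as well. Summed over the list, levels were 391, 308, 290 and 319 CPM in E14.5 replicates 1 to 4 and 54.9 to 72.3 CPM in adults, and no gene of the list was at 0 in any library. Lum, a proteoglycan of meningeal fibroblasts, had 37.2, 27.4, 21.2 and 29.6 CPM in these libraries, the same order as Cldn11. That order was found in 4 of the 8 meningeal genes, in none of the other 8 members and in 3.75% of all genes tested. The part of meningeal cells in the E14.5 level of Cldn11 was not tested.

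**Figure D3:**
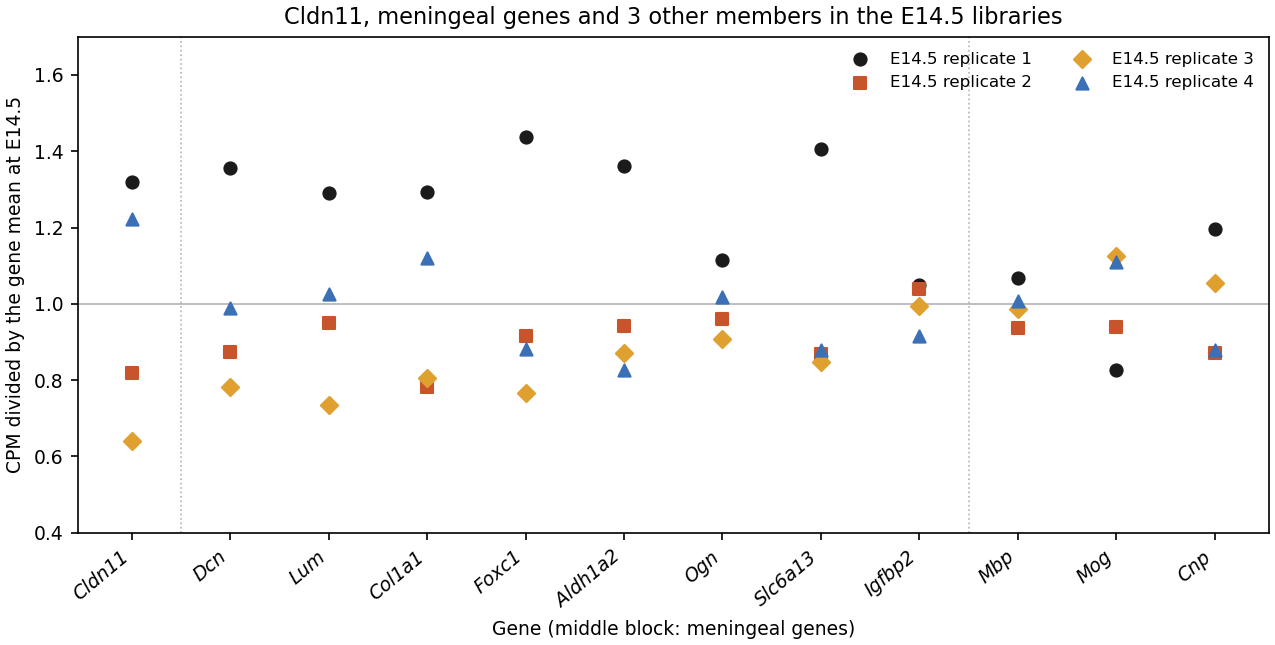
Level of Cldn11, of 8 meningeal genes and of 3 other members in each E14.5 library, as CPM divided by the mean of that gene over the 4 libraries. Replicate 1 is the highest library for Cldn11 and for all 8 meningeal genes. The Cldn11 values spread 2.06 times from lowest to highest, against 1.14 times for Mbp, the tightest member at E14.5.

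Opalin, a glycoprotein of the inner tongue and paranodal loops, was the least abundant member in adults and had no count in 3 of the 4 E14.5 libraries. All 4 E14.5 libraries were under the level that 3 counts would give (0.0619 to 0.0818 CPM). Opalin (ENSMUSG00000050121, chromosome 19, 41061710 to 41077113, minus strand) had 0, 0, 1 and 0 counts in E14.5 replicates 1 to 4 and 23.6, 20.5 and 19.7 CPM in adults. The ratio of pooled levels was 3590, with an exact 95% counting interval from 643 to 142000. The fitted log2 fold change of 11.12 (SE 0.265, adjusted p = 1.9e-11) depends on the prior count. Its SE does not carry the width of that counting interval. Opalin passed the filter on low counts only through its adult libraries, so the p-value is a description. Adult replicate 1 was the highest, and Opalin had the widest spread among adults, with a coefficient of variation of 9.74%.

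The make-up of the set differed between ages when levels were compared per length. Levels between genes are given as deposited RPKM (reads per kilobase of gene and library size). At E14.5 the order was Cldn11 (9.24 to 19.5 RPKM), Cnp (3.02 to 4.23), Mog (1.96 to 2.61), Mbp (2.04 to 2.37), Ermn (0.357 to 0.576), Mal (0.232 to 0.377), Mag (0.0302 to 0.0739), Mobp (0 to 0.00898) and Opalin (0 to 0.0160). Of the neighbours in that order, Mog and Mbp, Ermn and Mal, and Mobp and Opalin overlapped in their libraries. In adults the order was Mbp (273.2 to 282.3 RPKM), Mobp (107.4 to 117.7), Mal (75.1 to 81.8), Cnp (68.1 to 70.8), Cldn11 (60.1 to 61.2), Mag (35.6 to 36.5), Mog (28.1 to 30.2), Ermn (22.84 to 26.75) and Opalin (9.16 to 10.9). No neighbours overlapped in adults. Of the summed RPKM of the 9 genes, Cldn11 made up 61.1 ± 8.14% at E14.5 and 8.69 ± 0.082% in adults, and Mbp 9.60 ± 1.64% and 39.8 ± 0.195%. Mobp went from 0.0262 ± 0.0234% to 16.0 ± 0.449% of the summed RPKM. These shares carry no test.

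The order per length rests on the 1 length that the authors used for each gene. For Mbp that length was 8403 bases, where the longest annotated coding transcript has 4797 bases. With the longest coding transcript as the length, an alternative chosen after seeing the data, Mbp made up 44.6% and Mobp 21.4% of the adult sum, and Cnp passed Mal in the adult order. The adult shares of Cldn11 (5.50 to 5.61%) and Mag (5.41 to 5.68%) then overlapped. Cldn11 still had the largest share at E14.5 (53.0%), and Mbp passed Mog.

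**Figure D4:**
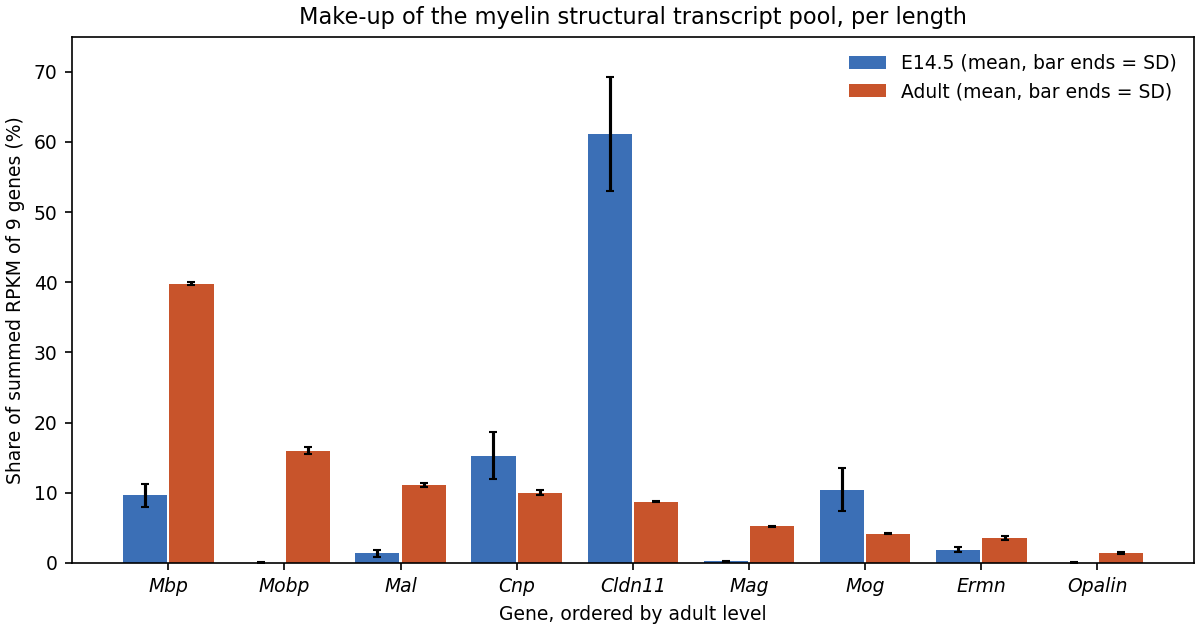
Share of each gene in the summed RPKM of the 9 myelin structural genes at E14.5 (blue, n = 4) and in adults (orange, n = 3), as means with SD. Cldn11 has the largest share at E14.5 (61.1%) and Mbp in adults (39.8%).

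As a whole, the 9 genes took 0.00556 to 0.00786% of all counts in the E14.5 libraries and 0.392 to 0.407% in the adult libraries. Members varied little between adult libraries, with coefficients of variation from 1% for Mag to 9.74% for Opalin. Mbp, Mog, Mobp, Cldn11 and Mal were highest in adult replicate 2, the library with Atr +/+. Cnp and Opalin were highest in replicate 1, and Mag and Ermn in replicate 3. The share of all tested genes that were highest in each adult library was not computed, so this split is a description only. The difference of genotype rests on 1 library and was not tested.

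The genes that serve the same cell were described by lists, beside the 41.7% of all tested genes called higher and the 44.7% called lower. Of 8 genes of myelin lipid synthesis, 7 rose and none fell (median log2 fold change 3.81), although Cers2 (0.08, not called) was called lower with total-count scaling (-0.34) and higher with DESeq2 (0.13). Aspa, which releases acetate for lipid synthesis, rose from 0.180 ± 0.114 to 31.4 ± 0.661 CPM, and Fa2h, which hydroxylates myelin lipids, had no count at E14.5 and 38.4 ± 1.25 CPM in adults (at least 531-fold up if 3 counts per library are taken as the floor). Of 14 other proteins of myelin and oligodendrocytes, 13 rose and none fell (median 5.57), although Jam3 was called lower with total-count scaling (-0.52 against -0.11). The gap-junction genes Gjc3 and Gjb1 had 4 and 2 counts over the E14.5 libraries and 22.5 ± 1.18 and 12.4 ± 0.136 CPM in adults.

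Transcription factors of the lineage moved both ways. Of 10, 7 rose and 3 fell (median 5.17), and the fall of Zeb2 (-0.16) lost its call under 4 of 18 alternatives. Nkx6-2 and Nkx2-2, homeodomain factors of oligodendrocytes, had 5 and 4 counts over the E14.5 libraries and 9.53 ± 1.26 and 3.15 ± 0.0852 CPM in adults. St18, a zinc finger factor, fell from 37.7 ± 6.11 to 13.3 ± 1.39 CPM (log2 fold change -1.50, SE 0.130, adjusted p = 8.2e-07). Sox10 and Olig2, named after their values were seen, were detected at E14.5 in every library (0.206 to 1.55 and 1.65 to 5.09 CPM) and rose to 46.5 ± 2.60 and 20.5 ± 1.93 CPM.

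Among 8 genes known to hold back oligodendrocyte maturation, 3 rose and 5 fell (median -0.99), and the fall of Id2 (-0.27) lost its call without adult replicate 3. Sox5 fell from 224.0 ± 31.6 to 47.2 ± 2.32 CPM and Hes5, a Notch target, from 25.6 ± 1.31 to 6.35 ± 1.09, while the receptor Gpr17 rose from 0.265 ± 0.167 to 35.2 ± 2.57. Several of these genes, Sox5 and Hes5 included, are also expressed by neurons or neural progenitors. All 7 precursor genes rose (median 2.03), but Ptprz1 (log2 fold change 0.28) lost its call under 4 of 18 alternatives, with a lowest value of -0.13. Tnr, a matrix glycoprotein, rose from 10.3 ± 2.55 to 191.7 ± 7.60 CPM and Lhfpl3 from 1.97 ± 0.523 to 24.1 ± 1.71. Of 6 genes of newly formed oligodendrocytes, 5 rose and 1 fell (median 4.31), and Tns3 (0.50) lost its call under total-count scaling and both RPKM fits. The sialidase gene Neu4 had no count at E14.5 and 7.54 ± 0.765 CPM in adults (at least 104-fold up on the same floor). Enpp6 had 7 counts over the E14.5 libraries and 10.3 ± 0.243 CPM in adults, while Fyn, a kinase also found in neurons, fell from 197.8 ± 9.23 to 116.5 ± 1.01 CPM.

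The partners of myelin on the axon were also mostly higher. Of 10 genes of nodes and paranodes, 9 rose and 1 fell (median 3.37), and 7 to 9 rose over the alternatives. Nfasc turned from 0.24 to -0.17 with total-count scaling, and Cntnap2 (0.30) lost its call under 4 of 18 alternatives. Cntnap1, the paranodal partner of contactin, rose from 2.02 ± 0.607 to 287.2 ± 4.63 CPM, and the juxtaparanodal potassium channel Kcna2 from 5.17 ± 1.81 to 376.9 ± 11.3. Cntn2, an adhesion protein also found on growing axons, fell from 788.8 ± 78.8 to 211.4 ± 1.43 CPM. Of 7 genes of the receptors that read myelin inhibitors such as Mag, 5 rose and 2 fell (median 1.72), but the rise of Rtn4rl2 (log2 fold change 0.26, edgeR adjusted p = 0.041) was lost under 12 of 18 alternatives, in which its log2 fold change reached down to -0.15. Rtn4rl1 rose from 2.68 ± 1.04 to 65.3 ± 3.00 CPM and the co-receptor Lingo1 from 22.9 ± 4.21 to 259.9 ± 5.95, while Ngfr fell from 19.9 ± 1.68 to 1.29 ± 0.351.

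Peripheral myelin genes moved both ways, and Pmp2, a fatty acid-binding protein of Schwann cell myelin, had no count in any library. Of 7 peripheral myelin genes, 4 were tested, of which 3 rose and 1 fell, and the list summed to 49.7 to 58.1 CPM at E14.5 and 161 to 187 CPM in adults. Most of that sum came from Drp2, which rose from 40.3 ± 2.75 to 146.1 ± 12.4 CPM, and Pmp22, which rose from 8.36 ± 1.45 to 26.04 ± 0.341, while Prx fell from 5.67 ± 0.262 to 0.521 ± 0.131. Drp2 and Pmp22 are not limited to Schwann cells.

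**Figure D5:**
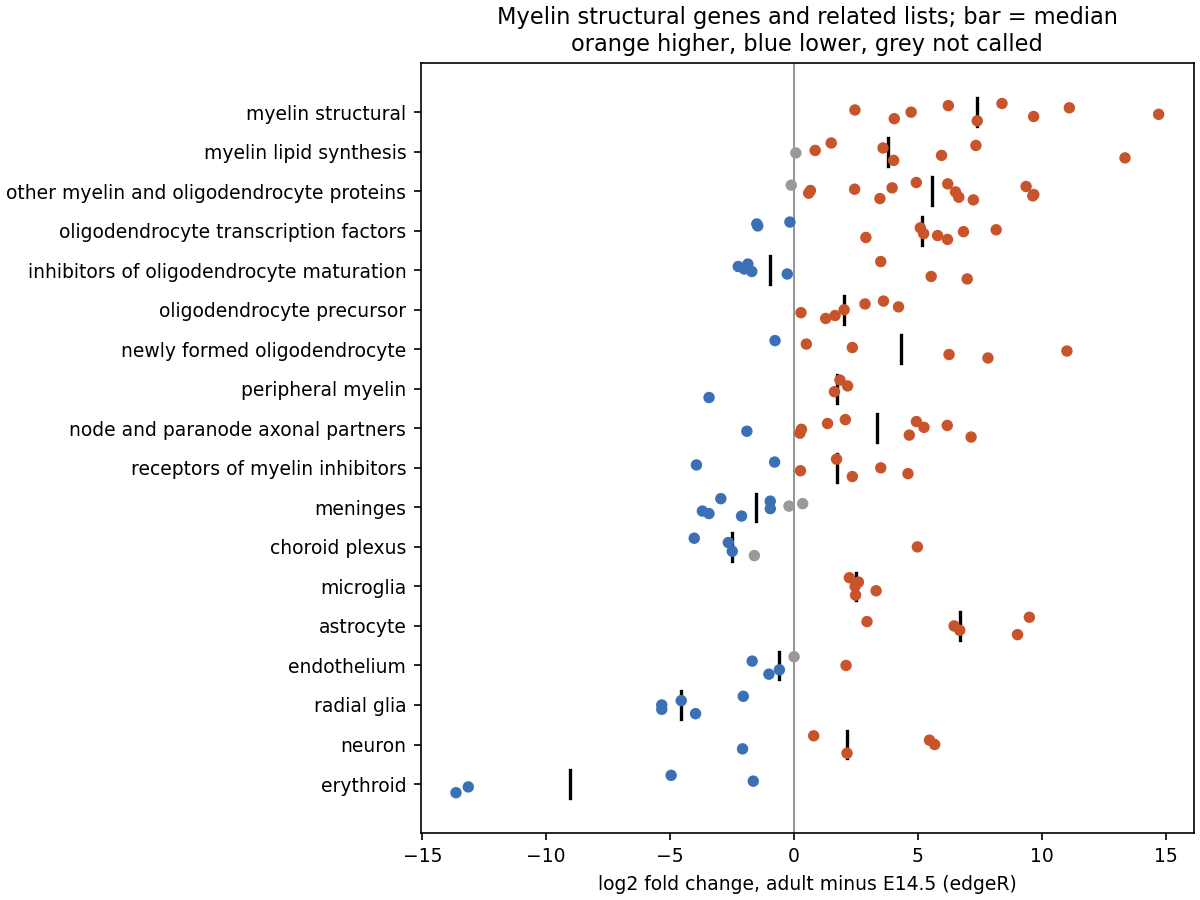
log2 fold change (adult minus E14.5, edgeR) of the 9 myelin structural genes and of the tested genes of 17 other lists, with genes called higher in orange, lower in blue and not called in grey, and a bar at each median. The median of the myelin structural genes is 7.40 and that of the meningeal genes -1.54.

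Markers of other cell types differed between the ages as well. All 5 astrocyte, all 5 microglia and 4 of 5 neuronal genes rose, and all 5 radial glia genes, all 4 erythroid genes and 3 of 5 endothelial genes fell. Of the neuronal genes 1 fell (Tubb3, log2 fold change -2.07). Of the endothelial genes 1 rose (Flt1, from 20.5 ± 1.37 to 88.0 ± 7.67 CPM) and 1 was not called (Tek). Astrocyte genes summed to 37.5 to 72.3 CPM at E14.5 and 4420 to 4530 in adults, microglia genes to 28.8 to 40.8 and 209 to 226, neuronal genes to 1730 to 2080 and 7530 to 8020, and radial glia genes to 1890 to 1980 and 75 to 80.9. Erythroid genes summed to 177 to 330 and 3.05 to 3.85 CPM, with Hba-x at 0 in all adult libraries, and endothelial genes to 142 to 188 and 154 to 176. Of 5 choroid plexus genes 3 fell and 1 rose, and their sum varied most among replicates, from 200 to 752 CPM at E14.5 and from 27.1 to 476 in adults. The part of these cell types in the rise of the members was not tested.

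The genes with the profile most like the members were Zfp831, Itih3, Cx3cl1, Med10 and Gm16485. Likeness was the root-mean-square difference over 7 libraries between log2 of CPM plus 0.5 of a gene and the median of the 9 members, both centred on the mean of the 2 ages, among 11323 genes averaging 10 CPM or more. The difference was 0.10 for Zfp831, Itih3 and Cx3cl1, 0.11 for Med10 and 0.13 for Gm16485, while for the members themselves it ran from 0.05 for Ermn to 2.43 for Mobp. Cx3cl1, a chemokine made by neurons, went from 9.76 ± 1.13 to 658.0 ± 34.5 CPM, and Itih3 from 0.128 ± 0.0512 to 35.7 ± 1.14. For Med10, exons of opposite-strand genes cover 92.8% of exon bases. The profile is mostly 1 step between the ages, so the measure ranks genes by how near their step in log2 of CPM plus 0.5 comes. The added 0.5 flattens levels near 0. Fitted log2 fold changes of the 5 genes therefore differed, from 6.07 for Cx3cl1 to 11.57 for Med10.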

How the data were processed

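Whole-number read counts, RPM and RPKM per gene were deposited by the authors for 7 libraries. TopHat2 2.1.0, featureCounts 1.5.0, bcl2fastq 1.8.4 and the GRCm38 build are listed in the submitters' processing notes; for the strand setting and the gene annotation, the sources used here give nothing. Per the labels' protocols, TruSeq RNA v2 was used at E14.5 and TruSeq stranded mRNA in adults, and only the second marks strand. The deposited RPM equalled counts over the library total, whereas 1 length per gene underlies the deposited RPKM. The count test was edgeR 4.0.16 under R 4.3.3 (TMM, filterByExpr with minimum count 10 and minimum total 15, age as the only term, adjusted p threshold 0.05), and a change beyond 2-fold with glmTreat. SE was taken as the absolute log2 fold change over the root of F. For genes with few E14.5 counts, such as Mag, Mobp and Opalin, this SE understates the counting error that the exact intervals show. CPM are on TMM-scaled totals, whereas RPKM are as deposited. Over all tested genes the median log2 fold change was -0.08, and -0.49 when only total counts were used for scaling; values are relative to TMM scaling.

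Members and lists were chosen with earlier results of these data known. Named genes were all members, from each list the 2 genes called with the largest change in its main direction and the largest opposite one (averaging 1 CPM or more), and the 5 most alike profiles. The lists of other cell types are given mainly by counts and sums, with values for few of the genes that the rule names. Positions are from GENCODE M21, in which 53620 of 53801 gene identifiers were found, and promoters from RefSeq on GRCm38.p6. Exact intervals were computed with SciPy 1.17.1. Intervals and floors (3 counts) cover counting error only. Replicates of an age differed beyond sampling noise (chi-square per degree of freedom 4.44 to 14.4). Alternatives were other scalings and filters, DESeq2 1.42.0, limma 3.58.1, each library left out, females only and the replicate number as a block. On simulated counts over 20800 genes for the age comparison, the test called 41 of 67 genes at 1.5-fold, 51 of 67 at 2-fold and 64 of 66 at 4-fold, plus 7 genes that had no change. Most genes were unchanged there, unlike in these data.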

Additional observations from a re-analysis of the deposited data

Results flagged for a closer look

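Opalin at E14.5 stood out because a single library held its only count: replicate 3 had 1 count and the other 3 libraries had 0, so the gap of the highest library to the others, as a share of the whole range, was 1. A single count is within what counting error gives.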

How the results depend on the processing

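All 9 myelin structural genes were called higher in adults under each of the 18 alternatives fitted over all genes, with the largest adjusted p at 2.3e-05 (Cldn11, limma-trend on log2 RPKM). Among all genes tested, 8683 of 20800 were called higher in the main fit, 8927 of 20800 with RLE scaling and 6751 of 20800 with total-count scaling. Mag, Mobp and Opalin passed the main filter only through their adult libraries, so their calls are a description. Over the count tests, log2 fold changes ranged from 2.05 to 2.92 for Cldn11, 3.64 to 4.11 for Mog, 4.32 to 4.83 for Cnp, 5.82 to 6.39 for Ermn, 6.98 to 7.45 for Mbp, 7.98 to 8.51 for Mal, 9.26 to 10.03 for Mag, 10.23 to 12.49 for Opalin and 13.93 to 15.05 for Mobp. With a pseudocount of 0.5 on RPKM, Mobp was at 7.79, Opalin at 4.35 and Mag at 6.04, since the pseudocount exceeds their E14.5 levels. Replicate numbers did not pair the libraries (correlations of same-numbered deviations -0.00126, -0.015 and 0.0283). With the replicate block, 17669 genes were called in place of 17975, and all 9 members. Of all calls, 48.3% were upward; this was 37.1% under total-count scaling, and limma-trend gave 37% (RPKM plus 0.5) and 36.9% (plus 0.1).

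Among the related lists, total-count scaling and both RPKM fits called 1 lipid gene lower where the main count was 0 (Cers2, which RLE scaling, DESeq2 and the filter at 1 CPM called higher), and 2 node and paranode genes lower where it was 1 (Nfasc was the other). In the list of other myelin proteins, 1 gene (Jam3) was called lower under these 3 settings, with upper-quartile scaling and without the low-count filter, where the main count was 0. In the meningeal list, 1 gene (Ogn) was called higher with DESeq2, and the number ranged from 0 to 1 when each library was left out (1 without adult replicate 1). Aldh1a2 of the same list (-0.20, not called) was called lower with total-count scaling (-0.62) and in both RPKM fits. So was the endothelial gene Tek (0.01, not called; -0.41 with total-count scaling). Of the choroid plexus genes, Ttr (-1.60, not called) was called lower without adult replicate 3 (-3.99), with limma-voom (-2.66), with the replicate block (-3.14), without the low-count filter (-1.68) and in both RPKM fits (-3.06 and -3.08). Cers2, Nfasc, Jam3, Ogn, Aldh1a2, Tek, Ttr, Cntnap2, Id2, Ptprz1, Rtn4rl2, Tns3 and Zeb2 were named after their values were seen. The adult share of Mbp was 39.8% of summed RPKM, 58.5% by CPM without length and 44.6% with the longest coding transcript, and 39.7 to 39.8% with each library left out. The E14.5 share of Cldn11 was 61.1%, 41.1% and 53.0%, and 59.0 to 64.8% with each library left out. Depth limits Mobp and Opalin at E14.5, where 3 counts correspond to 0.0619 to 0.0818 CPM.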
